A study of Mus musculus with 12 samples.

Results

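The 8 acyl-CoA thioesterase genes Acot1, Acot2, Acot3, Acot4, Acot8, Acot9, Acot12 and Acot13 were followed in mouse liver RNA-seq data. They were taken by symbol from the deposited gene table, which holds 23849 symbols, and each of the 8 was found once. Of these, 7 reached a mean of 1 FPKM (fragments scaled by the length of the gene and the size of the library) over the 12 libraries and were tested among 9806 symbols. Acot9, at a mean of 0.875 FPKM, stayed under that minimum.

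The livers came from male C57BL/6J mice, described as 8 weeks old, all of them on a high-fat diet (HFD). Mice received either vehicle, which was drinking water, or Libramed for 2 weeks, both by oral gavage. Libramed is the name in the labels for Policaptil Gel Retard, a gel-forming fiber product that is not absorbed and was given once a day by gavage shortly before lights off. Liver was taken at zeitgeber time 0 (ZT0, lights on) or ZT12 (lights off), with 3 mice in each of the 4 groups vehicle ZT0, vehicle ZT12, Libramed ZT0 and Libramed ZT12. No group on normal chow was analysed here, so every value refers to mice on HFD.

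Acyl-CoA thioesterases (ACOTs) cut fatty acyl-CoA into a free fatty acid and coenzyme A, the reverse of what the acyl-CoA synthetases do. They set how much acyl-CoA and free CoA each compartment of the cell holds. The type I enzymes are close relatives that sit in different compartments, ACOT1 in the cytosol, ACOT2 in mitochondria, and ACOT3 and ACOT4 in peroxisomes. The type II enzymes share another fold, and include the peroxisomal ACOT8, the mitochondrial ACOT9, the cytosolic acetyl-CoA hydrolase ACOT12, and ACOT13, also called THEM2, which is found at mitochondria. In liver several of the genes are known targets of PPARα, the nuclear receptor for fatty acids that is active in fasting and fat feeding.

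The type I genes lie side by side on the plus strand of chromosome 12 (GENCODE vM21, mm10). Acot2 spans chr12:83987861-83993873, Acot1 chr12:84009490-84018371, Acot4 chr12:84038379-84048601 and Acot3 chr12:84052144-84060402. The type II genes are scattered, with Acot8 at chr2:164792765-164804882 on the minus strand, Acot13 at chr13:24817948-24831540 on the minus strand, Acot12 at chr13:91741512-91786148 on the plus strand, and Acot9 at chrX:155262443-155297654 on the plus strand. The annotated Gm49366 on the same strand and the antisense gene 4732463B04Rik overlap both Acot3 and Acot4. Snx21 overlaps Acot8 on the opposite strand, and the antisense 4833422C13Rik overlaps Acot12.

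The 250 bases before the start sites of the neighbouring type I genes are shown (RefSeq, GRCm38.p6, plus strand), with motif matches in capitals. These genes rose at ZT12 over both treatments, as did Acot12 and Acot13. Promoters of 7 of the 8 members were matched, all but Acot13, and Acot3 had a pair of start sites, of which the upstream one is printed. The windows are chr12:84038129-84038378 for Acot4, chr12:84051894-84052143 for Acot3, chr12:84009252-84009501 for Acot1 and chr12:83987611-83987860 for Acot2.
Acot4: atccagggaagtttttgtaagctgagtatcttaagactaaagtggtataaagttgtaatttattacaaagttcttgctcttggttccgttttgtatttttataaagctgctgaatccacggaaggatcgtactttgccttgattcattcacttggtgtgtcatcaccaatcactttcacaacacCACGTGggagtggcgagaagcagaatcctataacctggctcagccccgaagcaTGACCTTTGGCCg
Acot3: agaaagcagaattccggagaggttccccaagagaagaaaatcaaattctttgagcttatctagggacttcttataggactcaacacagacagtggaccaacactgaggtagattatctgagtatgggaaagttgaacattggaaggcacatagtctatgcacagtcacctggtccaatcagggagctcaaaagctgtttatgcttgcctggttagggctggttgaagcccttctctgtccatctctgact
Acot1: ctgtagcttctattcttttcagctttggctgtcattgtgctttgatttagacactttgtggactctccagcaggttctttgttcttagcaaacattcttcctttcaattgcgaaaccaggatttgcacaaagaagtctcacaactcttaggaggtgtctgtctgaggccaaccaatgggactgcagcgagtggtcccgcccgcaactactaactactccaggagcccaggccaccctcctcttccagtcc
Acot2: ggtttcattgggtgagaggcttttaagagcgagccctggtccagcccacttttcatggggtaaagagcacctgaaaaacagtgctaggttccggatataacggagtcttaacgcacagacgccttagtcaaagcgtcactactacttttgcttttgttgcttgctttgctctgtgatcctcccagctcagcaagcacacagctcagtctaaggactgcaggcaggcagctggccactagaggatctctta

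Both strands of each window were searched for the DR1 element bound by PPARα (AGGTCA repeated with 1 base between), a looser form of it (GGNCA and AGGNCA with 1 base between, chosen after the sequences had been seen), the E-box (CACGTG) bound by CLOCK and BMAL1, and the D-box (TTATGTAA) bound by DBP and its relatives. Among the members' windows only that of Acot4 held a match. Its E-box runs from -66 to -61 and its loose DR1, read on the minus strand, from -13 to -2, counted back from the start site. Of the 32851 promoters in the table, 6.02% held the E-box, 0.694% the loose DR1, 0.0335% the full DR1 and 0.819% the D-box. Since the looser DR1 was chosen after the sequences had been seen, its share is no fair yardstick for the match in Acot4. A match is only a match of letters in this window.

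Because FPKM is scaled per length, levels can be set side by side between genes. Acot13 was the highest member, with a mean of 128.9 FPKM over the 12 livers, above 93.2% of the symbols tested. Acot12 followed at 34.5 FPKM, then Acot8 at 24.0, Acot4 at 11.3, Acot1 at 10.5, Acot3 at 5.88, Acot2 at 1.58 and Acot9 at 0.875 FPKM. Acot13 stood clear of Acot12 in every liver. The values of Acot1 and Acot4 overlapped in every group, and those of Acot12 and Acot8 overlapped only in the vehicle ZT0 group. Acot1 and Acot3 overlapped in all groups but Libramed ZT0, and Acot2 and Acot9 only in vehicle ZT0. Acot2 and Acot3 overlapped in all groups but Libramed ZT12, where Acot3 was higher in each liver. In the livers, Acot13 made up 50.8 to 66.6% of the summed FPKM of the 8 genes.

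Acot3 spread the most over the 12 livers, 121.0-fold between its lowest and highest value, and Acot8 the least, 1.48-fold. The other members lay between 1.86-fold for Acot12 and 10.8-fold for Acot2.

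**Figure D1:**
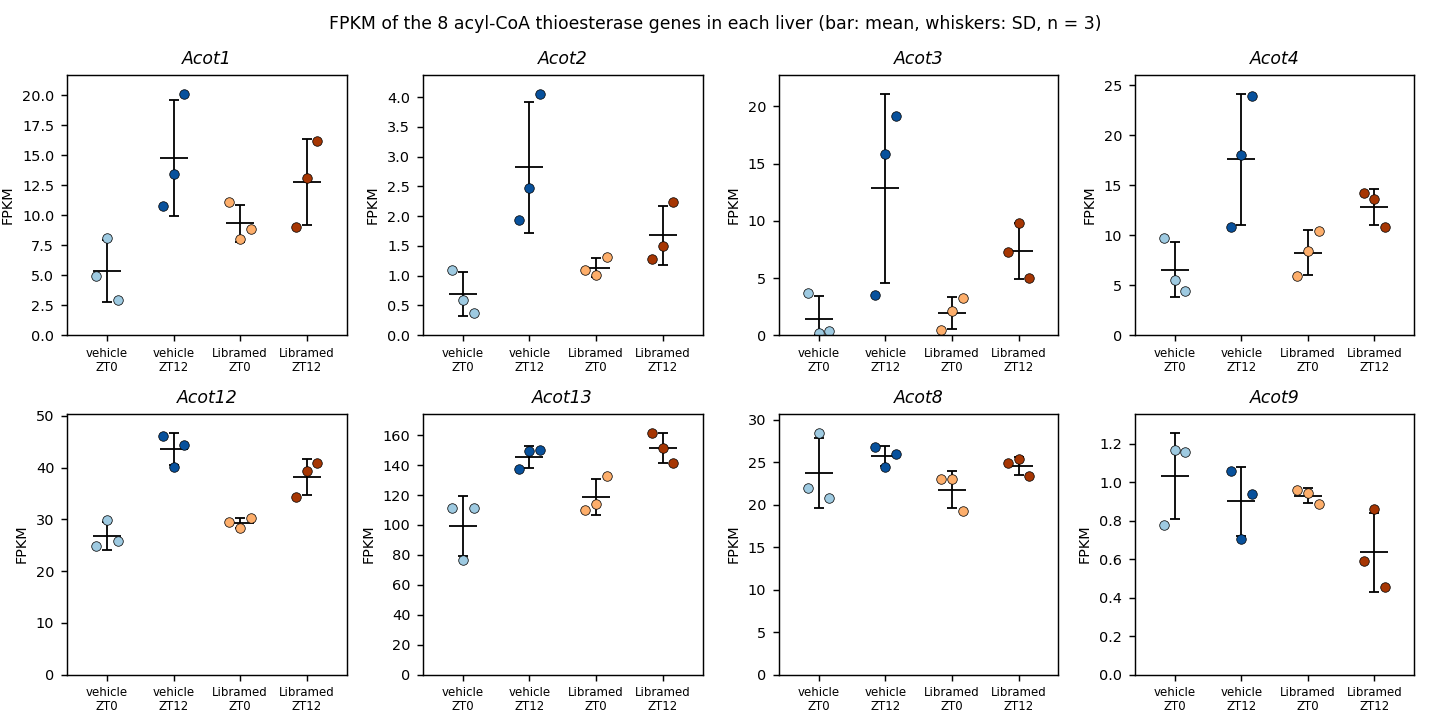
FPKM of each of the 8 genes (vertical axes, each from 0) in the 4 groups (horizontal axes). Points are single livers, the short bar is the mean and the whiskers are the SD (n = 3), cut at 0 for Acot3. Acot1 to Acot4, Acot8, Acot12 and Acot13 have higher means at ZT12 than at ZT0 under both treatments. The 12 values of Acot8 stay within 19.2 and 28.4 FPKM.

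The comparison of ZT12 with ZT0 asked which thioesterases change between the start and the end of the light phase. Across both treatments, 6 of the 7 tested members rose at ZT12 (limma on log2(FPKM + 1), Benjamini-Hochberg adjusted p under 0.05 over 9806 symbols), where 30.0% of all tested symbols passed in either direction. They were the 4 type I genes together with Acot12 and Acot13, and Acot8 did not pass the test. The median log2 fold change of the 7 members was 0.74, against 0.01 over all symbols tested. On this scale the fold change of a low gene is understated. Since whole liver was sequenced, a change in the number of cells of a type and a change in RNA per cell cannot be told apart.

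Acot3, whose product acts on long-chain acyl-CoA in peroxisomes, showed the largest log2 fold change of the members. In vehicle mice its values were 3.71, 0.159 and 0.330 FPKM at ZT0 and 3.50, 15.8 and 19.2 FPKM at ZT12. The ranges overlapped, since replicate 1 at ZT0 was above replicate 1 at ZT12. In Libramed mice they were 0.452, 2.14 and 3.21 FPKM at ZT0 and 7.24, 9.84 and 4.96 FPKM at ZT12, with no overlap. The means were 1.40 ± 2.00 and 12.8 ± 8.26 FPKM (SD, n = 3) with vehicle, and 1.93 ± 1.39 and 7.35 ± 2.44 FPKM (SD, n = 3) with Libramed. Acot3 rose over both treatments by a log2 fold change of 2.09 (SE 0.45, limma adjusted p = 0.00559). With Libramed alone the log2 fold change was 1.60 (limma adjusted p = 0.0433), and with vehicle alone it was 2.57 but missed the threshold (limma adjusted p = 0.0696).

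Acot4, a peroxisomal enzyme that also takes succinyl-CoA, rose in parallel from a higher level. It stood at 9.72, 5.52 and 4.45 FPKM in vehicle ZT0 livers and at 10.8, 18.1 and 23.9 FPKM in vehicle ZT12 livers. With Libramed the values were 5.96, 8.43 and 10.4 FPKM at ZT0 and 14.2, 13.6 and 10.8 FPKM at ZT12. All 6 livers at ZT12 were above all 6 at ZT0, as for Acot12 and Acot13, a separation that 7.48% of tested symbols showed in this direction. The log2 fold change over both treatments was 0.95 (SE 0.21, limma adjusted p = 0.00604). Within one treatment Acot4 missed the threshold, with a log2 fold change of 1.29 for vehicle (limma adjusted p = 0.0560) and 0.60 for Libramed (limma adjusted p = 0.0827).

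Acot1, the cytosolic member, was at 4.97, 8.11 and 2.94 FPKM in vehicle ZT0 livers and at 10.8, 13.4 and 20.1 FPKM in vehicle ZT12 livers, with no overlap. In Libramed mice it was at 11.1, 8.05 and 8.86 FPKM at ZT0 and at 8.99, 13.1 and 16.2 FPKM at ZT12, and these ranges overlapped. The log2 fold change was 1.35 with vehicle (SE 0.33, limma adjusted p = 0.0484) and 0.39 with Libramed (SE 0.21, limma adjusted p = 0.263). Over both treatments Acot1 rose by 0.87 on the log2 scale (SE 0.21, limma adjusted p = 0.0105).

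Acot2, the mitochondrial type I enzyme, was low throughout. It measured 1.10, 0.600 and 0.375 FPKM in vehicle ZT0 livers and 1.94, 2.48 and 4.05 FPKM in vehicle ZT12 livers, a 4.08-fold ratio of the means with no overlap. With Libramed it measured 1.09, 1.01 and 1.31 FPKM at ZT0 and 1.28, 1.50 and 2.24 FPKM at ZT12, a 1.48-fold ratio with overlapping ranges. The log2 fold change was 1.16 with vehicle (SE 0.24, limma adjusted p = 0.0290), 0.31 with Libramed (SE 0.14, limma adjusted p = 0.203) and 0.74 over both (SE 0.15, limma adjusted p = 0.00371).

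Acot12, which releases acetate from acetyl-CoA in the cytosol, was the one member that passed the test in each treatment as well as over both. Its values were 24.8, 29.9 and 25.9 FPKM in vehicle ZT0 livers and 46.2, 40.2 and 44.4 FPKM in vehicle ZT12 livers. With Libramed they were 29.5, 28.2 and 30.2 FPKM at ZT0 and 34.3, 39.2 and 40.9 FPKM at ZT12. Neither pair of groups overlapped. The log2 fold change was 0.68 with vehicle (SE 0.10, limma adjusted p = 0.0119), 0.37 with Libramed (SE 0.09, limma adjusted p = 0.0414) and 0.52 over both (SE 0.07, limma adjusted p = 0.000224).

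Acot13, the most abundant member, was at 111.0, 76.4 and 111.3 FPKM in vehicle ZT0 livers and at 137.2, 149.4 and 149.8 FPKM in vehicle ZT12 livers. With Libramed it was at 110.1, 113.8 and 132.7 FPKM at ZT0 and at 161.3, 151.5 and 141.5 FPKM at ZT12. The groups did not overlap under either treatment. Acot13 rose over both treatments by 0.46 on the log2 scale (SE 0.10, limma adjusted p = 0.00485), while within vehicle (0.56, limma adjusted p = 0.0683) and within Libramed (0.35, limma adjusted p = 0.0638) it missed the threshold.

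Acot8, the broad peroxisomal thioesterase that also hydrolyses bile acid CoA esters, kept a narrow range. It measured 22.0, 28.4 and 20.7 FPKM in vehicle ZT0 livers and 26.8, 24.5 and 26.0 FPKM in vehicle ZT12 livers, with 23.0, 23.1 and 19.2 FPKM at ZT0 and 25.0, 25.4 and 23.3 FPKM at ZT12 under Libramed. The ranges overlapped with vehicle. With Libramed each liver at ZT12 was above each at ZT0, a separation that 19.0% of tested symbols showed in this direction. The log2 difference over both treatments was 0.15 (95% interval -0.03 to 0.33, limma adjusted p = 0.191). Acot8 shares 13.8% of the 100-base windows of its transcript with the overlapping Snx21.

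Acot9 was measured at 0.777, 1.16 and 1.16 FPKM in vehicle ZT0 livers and at 1.06, 0.705 and 0.938 FPKM in vehicle ZT12 livers. In Libramed mice it was at 0.959, 0.945 and 0.888 FPKM at ZT0 and at 0.590, 0.861 and 0.454 FPKM at ZT12. These Libramed ranges did not overlap, but the share of all symbols that were lower in this way is not given here. Tested with no minimum on FPKM, the log2 difference of Acot9 between ZT12 and ZT0 was -0.25 with Libramed (limma adjusted p = 0.234) and -0.17 over both treatments (limma adjusted p = 0.172). It was the one member with lower means at ZT12 under both treatments.

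**Figure D2:**
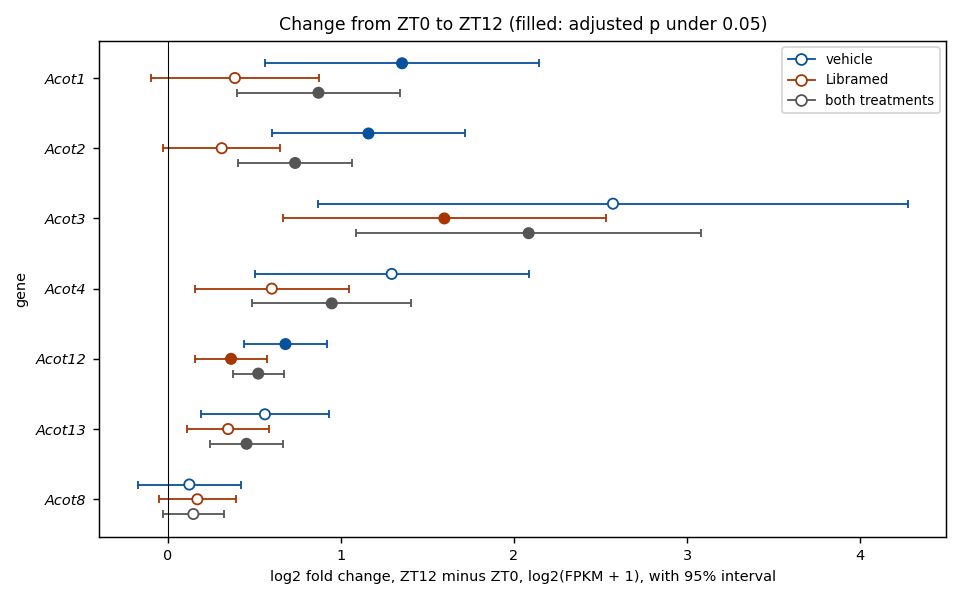
Log2 fold change from ZT0 to ZT12 (horizontal axis, log2(FPKM + 1), bars are 95% intervals) of the 7 tested genes (vertical axis), with vehicle (blue), with Libramed (brown) and over both treatments (grey). Filled points have an adjusted p under 0.05. All points lie above 0, and over both treatments every gene but Acot8 is filled.

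Counted within each treatment, 3 of 7 members passed with vehicle, and all 3 rose (Acot1, Acot2 and Acot12), against 10.4% of tested symbols that passed in either direction. With Libramed 2 of 7 passed and rose (Acot3 and Acot12), against 12.4%. At an unadjusted p under 0.05 the counts were 6 of 7 with vehicle, against 27.4% of tested symbols, and 4 of 7 with Libramed, against 29.2%. Values at ZT12 were above all values at ZT0 for 5 of 7 members with vehicle (17.4% of tested symbols) and for 5 of 7 with Libramed (19.0%). The members called under the 2 treatments are not the same, but this says nothing of a difference between treatments, which has its own test. Several of these calls were near the threshold. With vehicle, 0 members passed when vehicle ZT0 replicate 3 or vehicle ZT12 replicate 3 was left out, 1 passed without vehicle ZT12 replicate 2, and 4 passed without replicate 1 of either group. With Libramed, 0 or 1 passed whichever library was left out.

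The comparison of Libramed with vehicle asked whether the product changed these genes at a given time. No member passed at ZT0, at ZT12 or over both times (limma adjusted p under 0.05), and 0% of all tested symbols did so in any of these comparisons. At an unadjusted p under 0.05, 1 member differed at ZT0, 0 at ZT12 and 0 over both times, where 9.23%, 6.74% and 10.5% of tested symbols did. The member at ZT0 was Acot1, with means of 9.33 ± 1.56 FPKM for Libramed and 5.34 ± 2.60 FPKM for vehicle (SD, n = 3), whose ranges overlapped. Its log2 difference was 0.78 (95% interval 0.10 to 1.45, limma adjusted p = 0.521). These unadjusted counts moved with single livers. At ZT0 the count was 3 without vehicle ZT0 replicate 1, and 0 without vehicle ZT0 replicate 3, Libramed ZT0 replicate 1 or Libramed ZT0 replicate 3. At ZT12 it was 3 without vehicle ZT12 replicate 1 and 1 without Libramed ZT12 replicate 3, and over both times it was 1 without vehicle ZT0 replicate 2. The groups of 0 of the 7 members were apart at ZT0, where 5.19% of tested symbols were higher and 9.94% lower with Libramed in all livers. At ZT12 it was again 0 of 7, against 5.88% higher and 7.26% lower.

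The direction of the differences was counted, and was not tested over the members. At ZT0 the log2 difference was above 0 for 6 of 7 members, with a median of 0.33 against -0.02 over all symbols. At ZT12 it was above 0 for 1 of 7, with a median of -0.19 against -0.01. The intervals leave room for sizeable effects in the type I genes, from -0.94 to 1.87 for Acot3 at ZT0 and from -1.83 to 0.81 at ZT12 on the log2 scale. They are narrower for Acot8 at ZT12, from -0.23 to 0.10, and for Acot13 at ZT12, from -0.13 to 0.24.

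**Figure D3:**
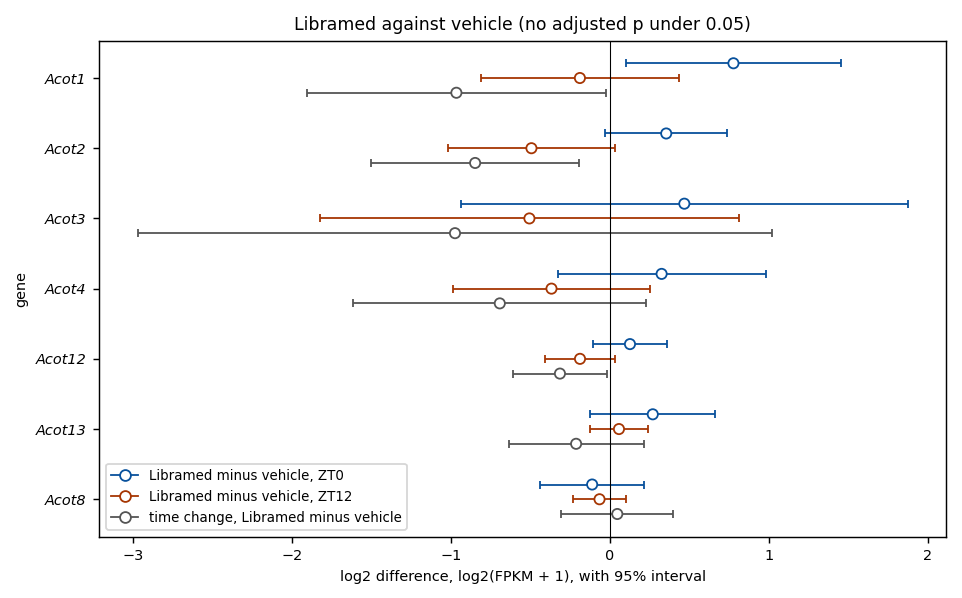
Log2 difference between Libramed and vehicle (horizontal axis, log2(FPKM + 1), bars are 95% intervals) at ZT0 (blue) and at ZT12 (brown) for the 7 tested genes (vertical axis). Grey marks the difference in the change over time. No adjusted p is under 0.05, and the grey interval lies below 0 for Acot1, Acot2 and Acot12.

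The interaction asked whether the change from ZT0 to ZT12 differed between Libramed and vehicle. No member passed (limma, adjusted p under 0.05), as 0% of all symbols did. At an unadjusted p under 0.05, 3 of 7 members had a smaller rise with Libramed, where 2.80% of tested symbols were lower by this measure. These were Acot2 (difference of the log2 fold changes -0.85, SE 0.30, limma adjusted p = 0.663), Acot12 (-0.31, SE 0.13, limma adjusted p = 0.725) and Acot1 (-0.97, SE 0.43, limma adjusted p = 0.740). The unadjusted count of 3 fell to 1 when vehicle ZT0 replicate 3, vehicle ZT12 replicate 3, Libramed ZT0 replicate 1 or 3, or Libramed ZT12 replicate 1 was left out. It was 2 without vehicle ZT0 replicate 1, vehicle ZT12 replicate 2 or Libramed ZT12 replicate 2. The estimate was below 0 for 6 of 7 members, Acot8 being the exception at 0.05. Since these members also share the same vehicle and Libramed livers, their estimates are not independent of each other.

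Summed over the type I genes, the level was 14.0 ± 5.71 FPKM in vehicle ZT0 livers and 48.0 ± 20.1 FPKM in vehicle ZT12 livers (SD, n = 3). With Libramed it was 20.7 ± 2.77 FPKM at ZT0 and 34.6 ± 3.19 FPKM at ZT12 (SD, n = 3). Vehicle livers had sums of 8.10 to 19.5 FPKM at ZT0 and of 27.1 to 67.2 FPKM at ZT12. Libramed livers had sums of 18.6 to 23.8 FPKM and of 31.7 to 38.0 FPKM. ZT12 livers were above ZT0 livers under both treatments, and the 3 vehicle ZT12 livers spread more widely than the 3 Libramed ZT12 livers. Type I genes made up 8.45 ± 3.20% of the sum of the 8 members in vehicle ZT0 livers and 17.8 ± 6.04% in vehicle ZT12 livers (SD, n = 3). With Libramed the share was 10.8 ± 0.678% at ZT0 and 13.9 ± 1.22% at ZT12 (SD, n = 3). Within the type I sum, Acot3 had the share that moved most, from 8.07 ± 9.60% to 24.4 ± 10.1% with vehicle and from 8.94 ± 5.79% to 21.1 ± 5.88% with Libramed (SD, n = 3).

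**Figure D4:**
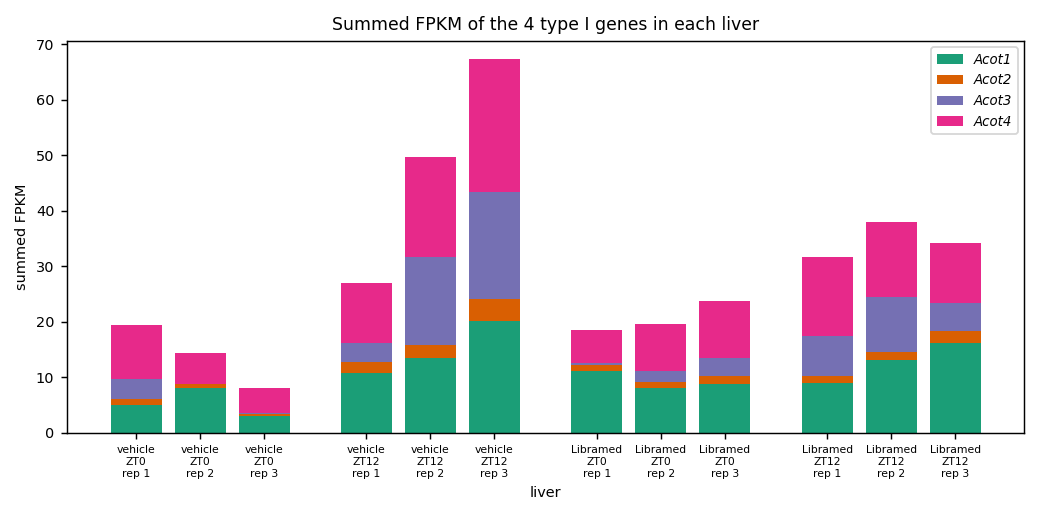
Summed FPKM of the 4 type I genes (vertical axis) in each of the 12 livers (horizontal axis, rep is the replicate), stacked by gene in the colours of the key. The sum is between 8.10 and 23.8 FPKM at ZT0 and between 27.1 and 67.2 FPKM at ZT12, and Acot3 is a thin layer in most ZT0 livers.

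Reads cannot always tell the type I genes apart from each other or from genes that overlap them. Of the 100-base windows of the Acot1 transcript 21.9% occur also in another gene, 359 of the 476 shared windows in Acot2. For Acot2 the shared windows were 17.1%, all in Acot1. For Acot3 they were 16.6%, and a window can be shared with several genes. Of these 552 windows, 330 occur in Gm49366, 214 in 4732463B04Rik, 104 in Acot1 and 21 in Acot4. For Acot4 they were 8.85%, most of them shared with the antisense 4732463B04Rik. Acot9 and Acot12 shared 0.968% and 1.69%, and Acot13 none. The values of Acot1 and Acot2, and of Acot3, Acot4 and Acot8, are uncertain for this reason. The share of windows does not bound the error of a low gene that has a higher relative. Acot1 was 4.50 to 13.5 times Acot2 in single livers, and how much of the Acot2 values came from Acot1 reads was not tested.

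The members were compared pairwise over the 12 livers by Pearson r of log2(FPKM + 1), given as a description, since the livers share their groups. Acot3 and Acot4, neighbours on the chromosome, were the pair most alike (r = 0.98), and r was 0.95 after the group means had been taken out. The overlapping Gm49366 and 4732463B04Rik are common to both. Acot1 and Acot2 followed each other less closely (r = 0.85 and 0.66 within groups). Acot1 and Acot3 shared the change over the day (r = 0.65), and within groups r was 0.09. For Acot8 and Acot13 r was -0.87 within groups, but the groups were not alike. Vehicle ZT0 replicate 2 had the highest Acot8 of all livers, 28.4 FPKM, and the lowest Acot13, 76.4 FPKM. In the Libramed ZT12 group both genes were lowest in replicate 3.

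Among all tested symbols, the 5 with the pattern most like Acot3 were Acot4, Smoc1, Slc16a7, Urad and Hpn, with r from 0.95 to 0.98 over the 12 livers. Those most like Acot4 were Acot3, Ppap2c, Urad, Smoc1 and Hexa (r from 0.93 to 0.98). Slc16a7, the monocarboxylate transporter MCT2, averaged 9.41 and 23.4 FPKM at the 2 times under vehicle, and 11.7 and 19.2 FPKM with Libramed. Those most like Acot1 were Gm10768, Aldh3a2, Slc25a13, Acaa1a and Hnf4aos (r from 0.90 to 0.94). Aldh3a2, which oxidises fatty aldehydes, had means of 92.6 and 163.9 FPKM with vehicle, and of 106.6 and 130.5 FPKM with Libramed.

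The other genes of acyl-CoA metabolism were counted from lists, to be read against the 10.4% of all tested symbols that passed in either direction with vehicle and the 12.4% with Libramed. The median log2 fold change over all tested symbols was 0.01 under each treatment. Of 15 further thioesterase genes, with the ACOT13 partner Pctp among them, 10 were tested. With vehicle 2 of them rose (Acot11 and Pctp) and with Libramed 1 (Acot11), and none fell, so that with Libramed 1 of 10 stood near the 12.4% of all symbols. Acot11, a type II enzyme with a lipid-binding domain, was at 1.20 ± 0.0957 FPKM in vehicle ZT0 livers and at 2.54 ± 0.707 FPKM in vehicle ZT12 livers, and under Libramed at 1.10 ± 0.313 and 3.70 ± 0.623 FPKM (SD, n = 3). Pctp, the phosphatidylcholine transfer protein that binds ACOT13, went from 44.7 ± 7.55 to 82.3 ± 8.97 FPKM with vehicle (log2 fold change 0.87, limma adjusted p = 0.0149). With Libramed it was at 62.5 ± 3.42 and 69.9 ± 3.13 FPKM (SD, n = 3), and its difference of the log2 fold changes was -0.71 (limma adjusted p = 0.519). The type I genes Acot5 and Acot6 were at or close to 0 in all groups.

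The acyl-CoA synthetases, which run the opposite reaction, had 15 tested genes. Of these 5 of 15 rose with vehicle, against 10.4% of all symbols, and 4 of 15 with Libramed, against 12.4%, and none fell. Acsm5, a mitochondrial medium-chain synthetase, rose with vehicle (log2 fold change 0.83, limma adjusted p = 0.00324) and with Libramed (0.39, limma adjusted p = 0.0432), as did Slc27a2, the very long-chain synthetase FATP2 (0.99, limma adjusted p = 0.0358, and 0.56, limma adjusted p = 0.0492). The median log2 fold change of the list was 0.48 with vehicle and 0.39 with Libramed, against 0.01 over all symbols.

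Of 13 genes that make or break down coenzyme A, 2 rose with vehicle, Pank1, which starts CoA synthesis, and Vnn1, the pantetheinase, and 2 with Libramed, Nudt8 and Vnn3. Both counts stood near the shares of all symbols, 10.4% and 12.4%. Vnn1 was at 16.3 ± 4.39 and 42.3 ± 9.80 FPKM with vehicle (limma adjusted p = 0.0173) and at 15.0 ± 3.89 and 21.3 ± 3.88 FPKM under Libramed (SD, n = 3, limma adjusted p = 0.154).

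Genes of fat oxidation were counted in peroxisomes and in mitochondria. Of 20 peroxisomal genes 6 rose with vehicle, against 10.4% of all symbols, and with Libramed 5 rose and 1 fell, against 12.4%. Decr2, the peroxisomal dienoyl-CoA reductase, rose under both (log2 fold change 0.97, limma adjusted p = 0.00586, and 0.75, limma adjusted p = 0.00440). Crot, the peroxisomal carnitine octanoyltransferase that acts on acyl-CoA in the same organelle as ACOT3, ACOT4 and ACOT8, was the one that fell with Libramed (-1.14, limma adjusted p = 0.00802), and with vehicle its value was -0.69 (limma adjusted p = 0.0980). Of 18 tested mitochondrial genes 4 rose with vehicle, against 10.4%, and 3 with Libramed, near the 12.4% of all symbols, with Cpt1a, Slc25a20 and Hadh in each.

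Known PPARα targets changed in both directions. Of 23 tested, 8 rose and 1 fell with vehicle, against 10.4% of all symbols, and 5 rose and 3 fell with Libramed, against 12.4%. Cpt1a, Acaa1b and Slc25a20 were among those that rose under both treatments. Cyp4a14 and Cyp4a10, the fatty acid omega-hydroxylases, fell with Libramed (log2 fold change -2.65, limma adjusted p = 0.00440, and -1.26, limma adjusted p = 0.0110). Their log2 values with vehicle were 1.69 (limma adjusted p = 0.476) and 0.56 (limma adjusted p = 0.600).

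The clock genes were counted as a check of the labelled times. Of 13 tested, 7 rose and 4 fell with vehicle (10.4% of all symbols passed), and 8 rose and 4 fell with Libramed (12.4%). Dbp, which binds the D-box, had means of 8.92 and 62.0 FPKM with vehicle and of 21.9 and 62.0 FPKM under Libramed, and Arntl, which encodes BMAL1, fell from a mean of 7.37 to 1.63 FPKM under vehicle and from 5.50 to 1.61 FPKM under Libramed. No lists were tested as sets.

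Judged from values of low genes, the deepest library (vehicle ZT12 replicate 2) was 1.79 times the shallowest (Libramed ZT12 replicate 2). The estimate is rough. It is the commonest ratio to the values of vehicle ZT0 replicate 1, at which 3.68 to 5.94% of these genes lay. None of the libraries was a copy of another. Hepatocyte markers were high in all, summed at 33702 to 48044 FPKM, although Alb is listed at 0 in every library. The 5 endothelial markers were lower in sum at ZT12, at 12.2 to 20.7 FPKM against 23.3 to 32.8 FPKM at ZT0 with vehicle and 19.2 to 20.3 FPKM against 30.1 to 38.2 FPKM with Libramed. The 5 stellate cell markers ran from 29.2 to 45.7 FPKM at ZT12 and from 31.4 to 58.4 FPKM at ZT0 with vehicle, and from 23.2 to 41.9 FPKM and from 48.0 to 64.8 FPKM with Libramed. Most of the endothelial sum was Clec4g, with vehicle means of 22.5 FPKM at ZT0 and 12.9 FPKM at ZT12. Most of the stellate sum was Dcn, at 41.8 and 29.9 FPKM. Of the 4 tested markers of each type, 0 had a log2 fold change above 0 under either treatment. The untested endothelial Lyve1 was at 0.328 and 0.344 FPKM with Libramed. The 5 fat cell markers summed to 11.5 to 42.8 FPKM at ZT12 against 2.85 to 7.97 FPKM at ZT0 with vehicle, and to 2.74 to 11.2 FPKM against 0.351 to 4.99 FPKM with Libramed. Nearly all of that sum was Cfd, with Lep and Retn at 0 in every library. The part of these cell types in the rise of the thioesterases was not tested. Skeletal muscle genes, all 5 of 5, were seen in Libramed ZT12 replicate 3, where they summed to 42.4 FPKM, and were at most 0.0473 FPKM in each other library. Without that library 6 of 7 members still passed over both treatments, and with Libramed alone 0 passed, the log2 fold change of Acot3 being 1.82 (limma adjusted p = 0.0664) and that of Acot12 0.32 (limma adjusted p = 0.111).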

How the data were processed

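Liver RNA of 12 mice was sequenced, and the authors deposited FPKM values (mm10), gene by gene, in 1 table. The submitters' processing notes name TopHat and Cuffnorm, whereas the methods of the study describe ELAND alignment with uniquely matching reads and a unit called RPKM. The libraries are called stranded in the methods, and the labels name an unstranded TruSeq kit. Total reads are not given, so depth is known only relative to each other and no counting error can be given. Groups were taken from the labels.

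Where symbols were repeated (289 extra lines), 1 line was kept, that of the highest mean. Symbols with a mean of at least 1 FPKM were tested on log2(FPKM + 1) with limma 3.58.1 in R 4.3.3 (lmFit, eBayes with trend), two-sided, with Benjamini-Hochberg adjustment over 9806 symbols. Pairs of groups were fitted on their 6 libraries. The interaction and the effects over both times or treatments were fitted on all 12. The fit of vehicle ZT12 against vehicle ZT0 was run on simulated data with known changes. The other comparisons and steps were not simulated.

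All 8 members are named. The 3 tested members with the largest SD of log2(FPKM + 1) over the 12 samples (Acot3, Acot1 and Acot4) were compared with every tested symbol, and the 5 most alike are named. Of the lists, genes with an adjusted p under 0.05 are named. The members and lists were chosen with earlier results of these data known. Results were recomputed with a pseudocount of 0.1, without a minimum, with a minimum of 5 FPKM, without the trend, with median-ratio scaling, quantile normalization, repeated lines summed, a replicate block, 1 fit over all samples, and each library left out in turn. Shared windows of 100 bases were counted in GENCODE vM21 transcripts. Promoters are from RefSeq.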

Additional observations from a re-analysis of the deposited data

Results flagged for a closer look

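A test of the difference itself marked 3 members, whose change from ZT0 to ZT12 was smaller with Libramed than with vehicle at an unadjusted p under 0.05, none of them after adjustment. The difference of the log2 fold changes, Libramed minus vehicle, was -0.85 for Acot2, -0.97 for Acot1 and -0.31 for Acot12. Over the alternatives run, these estimates stayed below 0, from -1.43 to -0.63 for Acot2, from -1.27 to -0.66 for Acot1 and from -0.39 to -0.24 for Acot12, with adjusted p from 0.362 to 0.872, from 0.583 to 0.954 and from 0.609 to 0.921. The count of members at an unadjusted p under 0.05 was less stable. It fell from 3 to 1 in the fits without vehicle ZT0 replicate 3, vehicle ZT12 replicate 3, Libramed ZT0 replicate 1, Libramed ZT0 replicate 3 or Libramed ZT12 replicate 1, and Acot2 was the member left in each. It was 2 with the replicate block, with no minimum, and with a minimum of 5 FPKM, where Acot2 was not tested. With 3 mice in a group, no single library was tested as standing apart.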

How the results depend on the processing

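Over both treatments, 6 members passed under every alternative run except a minimum of 5 FPKM, where Acot2 was not tested and 5 passed, and the fit without vehicle ZT0 replicate 2, where 7 passed. Counts within one treatment were less stable. With vehicle (3 as reported) 1 member passed with no minimum, where 17066 symbols were tested, 6 passed in the fit over all 12 samples, and 0 to 4 when single libraries were left out. With Libramed (2 as reported) 1 passed with a pseudocount of 0.1, with quantile normalization and in the fit over all 12 samples, 0 with no minimum, and 0 to 1 when single libraries were left out. The causes were not tested. No member passed in any comparison of the treatments or in the interaction under the alternatives run. At an unadjusted p under 0.05, 1 member differed between treatments at ZT12 with the replicate block and in the fit over all 12 samples, against 0 as reported, and 0 differed at ZT0 with no minimum, against 1. With the replicate block 0 members passed within vehicle and 0 within Libramed, and 6 over both treatments. Deviations of same-numbered samples from their group means correlated at -0.28 to 0.34, and those of differently numbered samples at -0.41 to 0.36. The replicate numbers thus showed no strong pairing, but a weaker one cannot be seen from these values.

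Signs changed only in treatment or interaction estimates near 0, none of them past the threshold. For Libramed against vehicle over both times, the log2 difference turned to 0.022 for Acot2 and to 0.28 for Acot3 with a pseudocount of 0.1, and to 0.0061 for Acot4 with quantile normalization. When single libraries were left out, it ran from -0.16 to 0.040 for Acot2, from -0.36 to 0.30 for Acot3, from -0.17 to 0.12 for Acot4 and from -0.059 to 0.0079 for Acot12. At ZT12 that of Acot1 then ran from -0.38 to 0.044, at ZT0 that of Acot8 from -0.20 to 0.020, and the interaction of Acot8 from -0.086 to 0.13.

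With 3 mice in a group and depth unknown, low members such as Acot2 and Acot9 are the least precisely measured.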
